A study of Mus musculus with 6 samples.

Results

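The 10 genes described here belong to the antioxidant response governed by the transcription factor NRF2. They are Nfe2l2, which encodes NRF2 itself, its inhibitor Keap1, and 8 genes that NRF2 is known to induce (Hmox1, Nqo1, Gclc, Gclm, Txnrd1, Srxn1, Slc7a11 and Gsr). They were chosen by name, as 10 of the 54532 genes in the expression table, and all 10 were among the 8882 genes with a mean of at least 1 FPKM (fragments per gene, corrected for gene length and library size), which were the genes tested. RNA-seq libraries of 3 wild-type (WT) and 3 progranulin-deficient (PGRN KO) macrophage samples were compared. Progranulin is a secreted and lysosomal glycoprotein encoded by Grn. The labels describe all 6 samples as peritoneal macrophages of strain C57BL/6J, plated at 2000000 cells per well and given Candida albicans, a pathogenic yeast, at a ratio of 1 fungus to each macrophage, with RNA taken after 6 hours. The titles of the WT samples also carry the word control, but their treatment label is the same challenge, so that no unchallenged sample was compared. The methods of the study name the Jackson Laboratory as the source of the PGRN KO mice and Chongqing Medical University as that of the WT mice, so genotype and source of the animals cannot be told apart. The study text names bone marrow as the source of the sequenced cells and gives a different ratio of fungus to cells, and the labels were followed here. Ages are not given in the labels, nor is it said whether the 3 samples of a group came from separate animals, so p-values measure the spread between these samples, which may be technical.

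NRF2 is held in the cytoplasm by KEAP1, an adaptor of a CUL3 ubiquitin ligase that marks it for degradation. Oxidants and electrophiles modify cysteines of KEAP1, NRF2 then accumulates, pairs with a small MAF protein and binds antioxidant response elements in the promoters or enhancers of its targets, while BACH1 competes for the same elements. The targets make and recycle glutathione, reduce thioredoxin, degrade haem and detoxify quinones. In macrophages the pathway is known for protecting the cell from the oxidants of its own respiratory burst and for limiting inflammatory cytokine expression. Much of the control of NRF2 acts on the protein, which was not measured here.

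Promoter sequence was examined for the element through which NRF2 acts. In the RefSeq promoter windows (GRCm38.p6), 7 of the 10 genes were matched, with 9 windows in all, and the 250 bases before each start were searched on both strands. Hmox1, Gclc and Gsr had no window and were not searched. The letters TGACNNNGC, the core of the antioxidant response element, were found in windows of Nfe2l2, Gclm and Txnrd1, and in 10.2% of all 32851 windows of that length. The letters TGATGCAA, the core of the element bound by ATF4 with its CCAAT-enhancer partners, were found at 2 places in the Slc7a11 window and in 0.791% of all windows. The letters TGAGTCA, the AP-1 site, were found at 2 places in the Srxn1 window and in 4.46% of all windows. The place at -45 to -39 is followed by GC, so it differs from the antioxidant core only in TGAG for TGAC. A match describes these letters only, and windows without one say nothing of the factors. The 4 windows with a match to the antioxidant or ATF4 core are given 5' to 3' on the strand of the gene, to show where these letters lie, with the matched core in capitals. Binding of NRF2 or ATF4 to them was not measured.
Nfe2l2 promoter (chr2:75704664-75704913, minus strand, core at positions -240 to -232 from the start): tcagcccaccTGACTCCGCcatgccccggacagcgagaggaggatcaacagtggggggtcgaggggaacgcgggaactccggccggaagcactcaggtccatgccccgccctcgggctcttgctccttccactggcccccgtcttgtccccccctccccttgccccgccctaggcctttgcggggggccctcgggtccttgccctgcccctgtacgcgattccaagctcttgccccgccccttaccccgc
Gclm promoter (chr3:122245307-122245556, plus strand, core on the opposite strand at -134 to -126): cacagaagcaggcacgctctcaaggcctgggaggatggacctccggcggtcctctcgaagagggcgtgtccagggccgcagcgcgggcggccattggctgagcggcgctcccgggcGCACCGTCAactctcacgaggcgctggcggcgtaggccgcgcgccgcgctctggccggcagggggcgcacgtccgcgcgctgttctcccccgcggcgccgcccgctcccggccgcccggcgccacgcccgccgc
Txnrd1 promoter, the second of 3 windows (chr10:82858956-82859205, plus strand, core on the opposite strand at -92 to -84): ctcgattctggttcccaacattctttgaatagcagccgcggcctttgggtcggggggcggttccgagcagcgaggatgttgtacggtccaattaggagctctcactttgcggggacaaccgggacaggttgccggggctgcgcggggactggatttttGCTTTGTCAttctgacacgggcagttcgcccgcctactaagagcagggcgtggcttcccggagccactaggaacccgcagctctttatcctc
Slc7a11 promoter (chr3:50443614-50443863, minus strand, cores at -66 to -59 and, on the opposite strand, at -47 to -40): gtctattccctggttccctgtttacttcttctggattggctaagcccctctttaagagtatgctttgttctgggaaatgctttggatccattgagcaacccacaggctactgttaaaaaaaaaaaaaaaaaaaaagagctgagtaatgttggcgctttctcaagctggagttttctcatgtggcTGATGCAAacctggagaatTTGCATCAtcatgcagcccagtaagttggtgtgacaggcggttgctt

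The libraries held 15996786 to 17551619 counted fragments, and a member of the set had between 24 and 20190 fragments in a library. Grn stood at 323, 337 and 325 FPKM in WT and at 0.0166, 0 and 0.0167 FPKM in PGRN KO, the latter from 1, 0 and 1 fragments, so every library matched its genotype label. PGRN KO replicate 6 stood apart. The deviation of its genes from their mean level fell with gene length (Spearman's rho -0.47 over tested genes, against 0.15 to 0.24 in the other 5 libraries). For some of the results that depend on that library, values without it are also given. Of 9 macrophage markers, 9 were above 1 FPKM, with a summed level of 11638 to 12581 FPKM in WT, against 10452 to 14386 FPKM in PGRN KO. Gata6, which defines resident peritoneal macrophages, was at 3.78 to 4.26 FPKM in WT, against 3.84 to 5.07 FPKM in PGRN KO, while Timd4, another of their markers, was at or near 0, and the sum of 8 such markers was 27.1 to 31.3 FPKM in WT, against 43.0 to 49.4 FPKM in PGRN KO. Most of that rise was Cd5l, at a mean of 7.21 FPKM in WT and 22.8 in PGRN KO, with Icam2 also higher, while Prg4 averaged 14.2 and 12.7 FPKM with overlapping groups. The summed level of 7 B cell markers was 4.82 to 6.09 FPKM in WT, against 19.1 to 24.2 FPKM in PGRN KO, and that of 7 mast cell markers was 2.29 to 3.19 and 9.72 to 14.0 FPKM, with Ms4a2 at 0. Most of the mast cell rise was Tpsb2 (means of 1.08 and 5.14 FPKM) and Cma1 (0.789 and 4.21 FPKM). Kit went the other way, at 0.345 and 0.210 FPKM with overlapping groups. The sum of 10 neutrophil markers was 60.7 to 66.9 FPKM in WT, against 32.5 to 36.4 FPKM in PGRN KO, nearly all of it S100a8 and Csf3r, with Elane, Ly6g and Cxcr2 at 0. The dendritic cell sum was 27.4 to 34.6 FPKM in WT, against 15.9 to 19.3 FPKM in PGRN KO, mostly Ccr7, and that of T and NK cells 2.62 to 3.80 and 3.83 to 6.35 FPKM. Mesothelial or fibroblast markers, chiefly Dcn and collagen genes, summed to 1.12 to 1.19 FPKM in WT, against 2.07 to 3.76 FPKM in PGRN KO, and red cell and eosinophil markers each to at most 0.352 FPKM in any library. The part of these cell types in the differences below was not tested, and in bulk samples fewer cells of a type and less RNA per cell cannot be told apart.

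The NRF2 gene itself and the most abundant target of the set were lower without progranulin, and the inhibitor was higher. Of the 10 genes, 4 were lower in PGRN KO than in WT (Nfe2l2, Hmox1, Gclc and Slc7a11), 2 were higher (Keap1 and Nqo1) and 4 did not pass the test (Gclm, Txnrd1, Srxn1 and Gsr). Genes were tested with limma on log2(FPKM + 1), with p-values adjusted by the Benjamini-Hochberg method over the 8882 tested genes and a threshold of 0.05. Among all tested genes 24.2% were called in either direction, 10.4% as higher and 13.8% as lower. The share of higher genes among all calls was 42.8% on this scale, 60.3% after rescaling to TPM and 62.9% where library size was the sum of fragments, and the medians of all tested genes shifted by less than 0.1 (log2) between these scales. The median log2 fold change of the 10 genes was -0.18, beside -0.03 over all tested genes. The WT and PGRN KO libraries did not overlap for 7 of the 10 genes, against 48.8% of all tested genes. Without PGRN KO replicate 6, 5 of the 10 genes were lower and 2 were higher, Txnrd1 being the gene added, beside 41.3% of all tested genes called. Folds on this scale are understated for genes of low FPKM such as Nqo1 and Keap1.

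**Figure D1:**
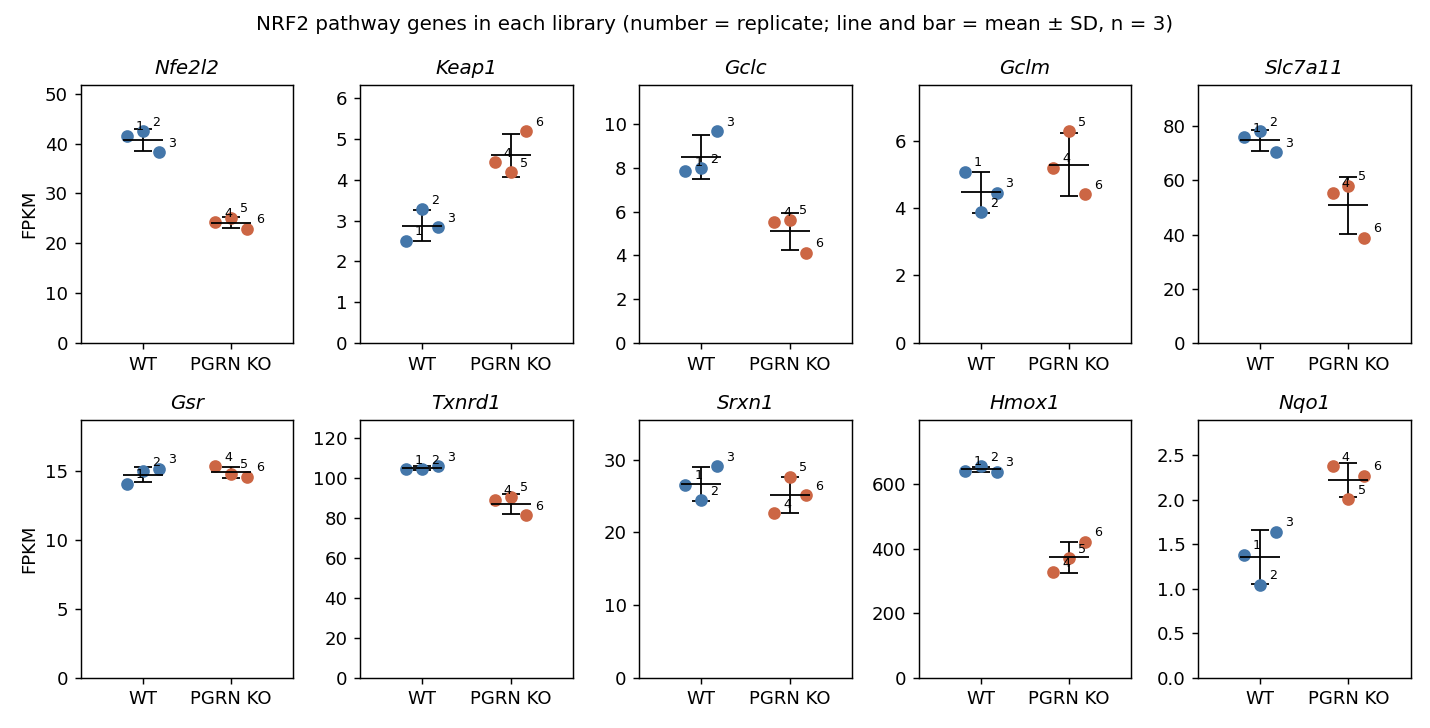
FPKM of each of the 10 genes (vertical axis, starting at 0) in the 3 WT and 3 PGRN KO libraries, with points numbered by replicate and lines and bars for mean ± SD. The PGRN KO libraries lay below all WT libraries for Nfe2l2, Gclc, Slc7a11, Txnrd1 and Hmox1 and above them for Keap1 and Nqo1, and the groups overlapped for Gclm, Gsr and Srxn1.

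Nfe2l2 (ENSMUSG00000015839, chr2:75675513-75704641, minus strand, GRCm38) stood at 41.6, 42.4 and 38.3 FPKM in WT replicates 1 to 3 and at 24.3, 25.1 and 22.9 FPKM in PGRN KO replicates 4 to 6. The groups were well separated, and each group varied little. The mean was 40.8 ± 2.20 FPKM in WT, against 24.1 ± 1.11 FPKM in PGRN KO (SD, n = 3 each), so that PGRN KO retained 59.1% of the WT level (log2 fold change -0.74 ± 0.09 SE, 95% interval -0.94 to -0.53, adjusted p = 0.00286). The difference passed the threshold in 17 of 17 alternative analyses, with adjusted p between 8.18e-05 and 0.0280. The transcript therefore differed by more than its spread whichever library was left out.

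Keap1 (ENSMUSG00000003308, chr9:21229730-21239361, minus strand) differed the other way. It was at 2.51, 3.28 and 2.85 FPKM in WT and at 4.44, 4.19 and 5.19 FPKM in PGRN KO, with every PGRN KO library above every WT library. Its level was 1.60-fold higher in PGRN KO (2.88 ± 0.389 against 4.61 ± 0.522 FPKM, log2 fold change 0.53 ± 0.12 SE, adjusted p = 0.0190), from 197 to 241 fragments per WT library and 361 to 421 per PGRN KO library. The call was lost without WT replicate 1 (adjusted p = 0.0870), without WT replicate 3 (0.0713) and with no filter on low genes (0.0541). An antisense gene, Gm16754, overlaps 10.9% of the Keap1 exon bases on the opposite strand and was at 0.412 to 0.725 FPKM in WT, against 0.546 to 0.885 FPKM in PGRN KO. The sources do not state strand-specific counting, so reads of the shared bases cannot be assigned to either gene with certainty.

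The ratio of activator to inhibitor transcript was calculated within each library, where it does not depend on scaling between libraries. Nfe2l2 exceeded Keap1 by 16.6-, 12.9- and 13.5-fold in WT and by 5.47-, 6.00- and 4.41-fold in PGRN KO. The groups were separate, with a 2.71-fold higher mean ratio in WT (log2 difference -1.44, -1.54 to -1.31 with any library left out), and the exact two-sided permutation p was 0.1, the smallest that 3 against 3 libraries can give. Nfe2l2 was lower and Keap1 higher in every PGRN KO library, so this separation and p follow from the single genes. The ratio adds only the size of the combined difference.

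Other regulators of NRF2 were examined as a list of 16 genes, of which 12 were tested, with 4 lower and 1 higher in PGRN KO (median log2 fold change -0.35). Beside this and each later list, 24.2% of all tested genes were called, 13.8% as lower and 10.4% as higher. The medians of the lists, singly and together, include PGRN KO replicate 6 and were not calculated without it. All 3 small MAF genes, whose proteins pair with NRF2, were lower, although only the Maff call held with every library left out in turn. Maff, the most abundant of them, was at 148, 155 and 139 FPKM in WT and at 79.3, 78.0 and 86.2 FPKM in PGRN KO (a log2 fold change of -0.85, adjusted p = 0.00206), and the call held in 17 of 17 alternatives. Mafk was at 62.1, 65.7 and 62.1 FPKM in WT, against 45.4, 43.3 and 51.5 FPKM in PGRN KO (a log2 fold change of -0.43, adjusted p = 0.0201), a call lost when any of 5 libraries was left out. Mafg differed by -0.34 on the log2 scale (adjusted p = 0.0227), likewise a call lost when any of 5 libraries was left out. Bach1, the repressor that competes with NRF2, was lower as well, at 23.7, 24.3 and 19.8 FPKM in WT, against 13.8, 12.1 and 7.59 FPKM in PGRN KO (a log2 fold change of -0.98, adjusted p = 0.0169, or -0.75 without PGRN KO replicate 6), and its call was lost without WT replicate 1 or 2. The regulator that was higher was Dpp3, a peptidase that binds KEAP1 and displaces NRF2 (log2 fold change 0.58, adjusted p = 0.0362, or 0.43 without PGRN KO replicate 6). Its call was lost when any of 4 libraries was left out.

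**Figure D2:**
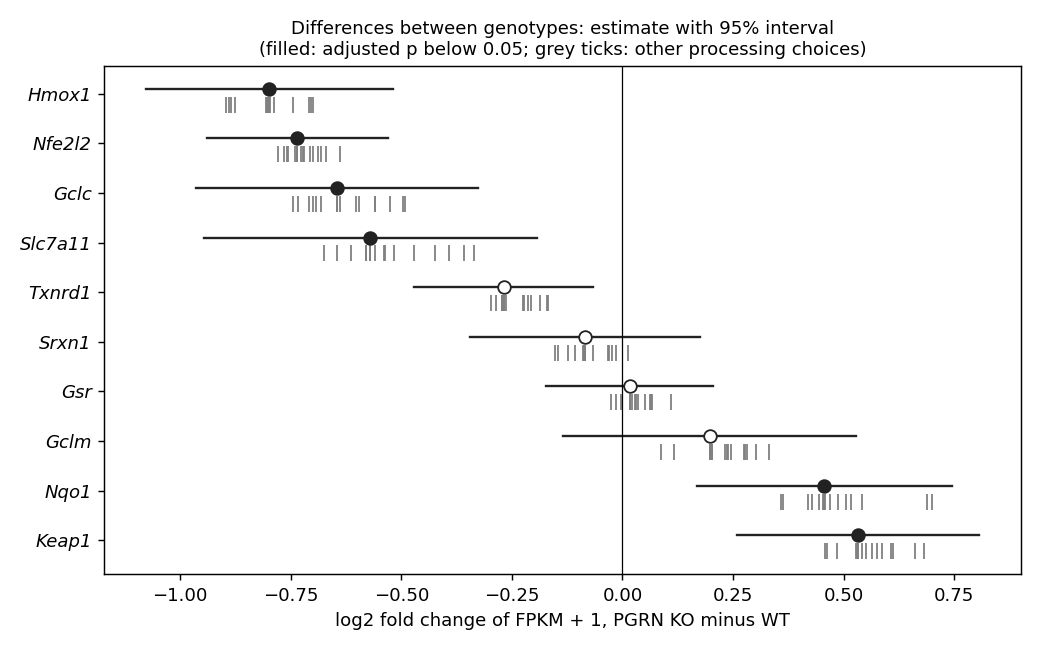
Log2 fold change of each of the 10 genes in PGRN KO relative to WT on log2(FPKM + 1), with lines for the 95% interval, filled points for genes past the threshold and grey ticks for the estimates under other processing choices. Hmox1 and Nfe2l2 lay farthest below 0, at -0.80 and -0.74, Keap1 and Nqo1 lay above 0 at 0.53 and 0.46, and ticks on both sides of 0 were seen for Srxn1 and Gsr.

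Of the 4 genes of glutathione supply in the set, 2 were lower in PGRN KO and 2 did not pass the test. Gclc encodes the catalytic subunit and Gclm the modifier subunit of glutamate-cysteine ligase, which carries out the first and rate-limiting step of glutathione synthesis. Slc7a11 encodes the cystine importer xCT, which supplies its cysteine, and Gsr encodes the reductase that returns oxidised glutathione to its reduced form.

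Gclc (ENSMUSG00000032350, chr9:77754535-77794485, plus strand) stood at 7.86, 7.99 and 9.67 FPKM in WT and at 5.53, 5.62 and 4.13 FPKM in PGRN KO. All PGRN KO libraries were lower than all WT libraries, and the level in PGRN KO was 59.9% of that in WT (8.50 ± 1.01 against 5.10 ± 0.836 FPKM, log2 fold change -0.64 ± 0.13 SE, adjusted p = 0.0167). The call was lost without WT replicate 1, 2 or 3 (adjusted p = 0.0564, 0.0567 and 0.0671), on a TPM scale (0.0744) and with no filter (0.0503).

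Gclm (ENSMUSG00000028124, chr3:122245557-122270732, plus strand) was at 5.08, 3.87 and 4.46 FPKM in WT and at 5.19, 6.27 and 4.41 FPKM in PGRN KO. Here the groups overlapped, and the difference did not pass the test (log2 fold change 0.20, 95% interval -0.13 to 0.53, adjusted p = 0.334), an interval that does not reach the fall seen for Gclc. The balance of the subunit transcripts was therefore compared within libraries. The Gclm to Gclc ratio was 0.647, 0.484 and 0.461 in WT and 0.939, 1.12 and 1.07 in PGRN KO, a log2 difference of 0.98 (0.89 to 1.13 with any library left out, exact two-sided permutation p = 0.1, the smallest possible). Gclc was thus the more abundant subunit transcript in every WT library, and the pair stood close to equal in PGRN KO.

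Slc7a11 (ENSMUSG00000027737, chr3:49892526-50443614, minus strand) was at 75.8, 78.0 and 70.4 FPKM in WT and at 55.5, 58.0 and 38.8 FPKM in PGRN KO, with replicate 6 the lowest. The mean fell to 67.9% of WT (74.8 ± 3.95 against 50.7 ± 10.4 FPKM, log2 fold change -0.57 ± 0.16 SE, adjusted p = 0.0413). Its gene model, at 13922 bases, is the longest of the 10, and the deviation of replicate 6 moved with length. Without that library the difference was smaller and more precise (log2 fold change -0.39, adjusted p = 0.00475). The call was lost in 8 of 17 alternatives, among them the loss of any of WT replicates 1 to 3 (adjusted p = 0.0964 to 0.137) or PGRN KO replicate 4 (0.0611), and on a TPM scale (0.129).

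The partner of xCT is the heavy chain encoded by Slc3a2, which was at 374 ± 6.30 FPKM in WT, against 327 ± 54.4 FPKM in PGRN KO and did not pass the test (adjusted p = 0.284). The Slc7a11 to Slc3a2 ratio was 0.204, 0.212 and 0.185 in WT and 0.184, 0.201 and 0.0996 in PGRN KO (log2 difference -0.37, exact two-sided permutation p = 0.2). Only replicate 6 lay far from the WT ratios, and without it the difference was -0.06.

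Gsr (ENSMUSG00000031584, chr8:33652523-33698163, plus strand) stood at 14.1, 15.0 and 15.2 FPKM in WT and at 15.3, 14.8 and 14.6 FPKM in PGRN KO. The groups overlapped, and the 95% interval of the log2 fold change ran from -0.17 to 0.20 (adjusted p = 0.896). This was the narrowest interval around 0 among the 10 genes.

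**Figure D3:**
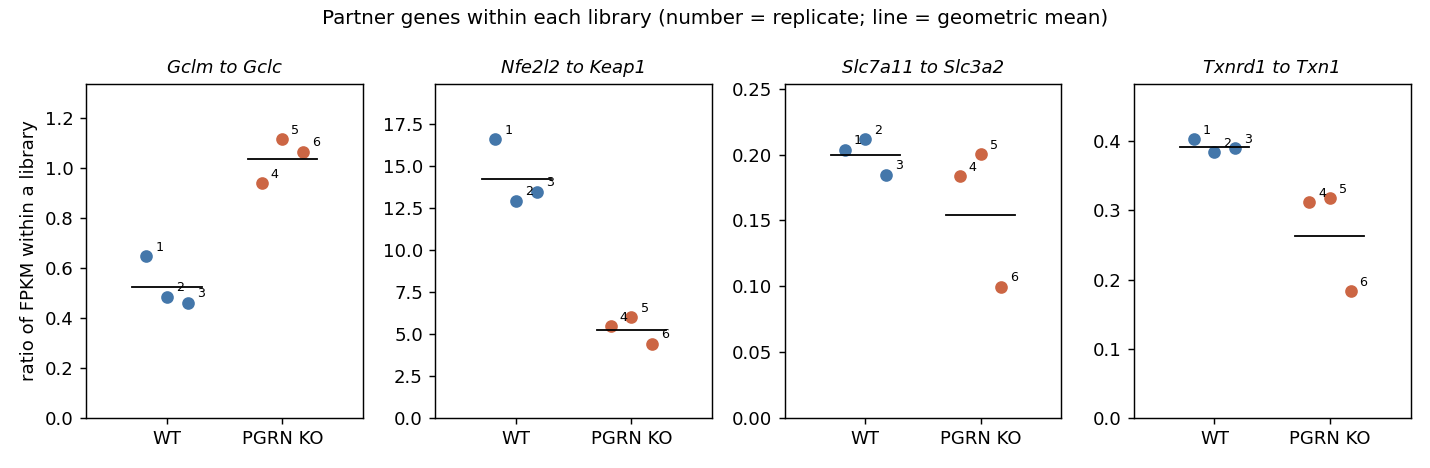
Ratios of FPKM within each library for 4 pairs of partner genes (linear axes from 0), with points numbered by replicate and a line for the geometric mean of each group. The groups were separate for Gclm to Gclc, Nfe2l2 to Keap1 and Txnrd1 to Txn1. Replicate 6 lay below the other PGRN KO libraries for Slc7a11 to Slc3a2, Txnrd1 to Txn1 and, by a smaller factor, Nfe2l2 to Keap1.

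Of 34 other genes of glutathione synthesis and use, 21 were tested, with 7 higher and 1 lower in PGRN KO (median log2 fold change 0.23), beside 24.2% of all tested genes called. Gpx3, a secreted glutathione peroxidase, was at 1.71, 1.38 and 1.71 FPKM in WT and at 6.34, 6.73 and 8.52 FPKM in PGRN KO (a log2 fold change of 1.65, adjusted p = 0.00119), a call that held in 16 of 16 alternatives. The glutathione transferase gene Gstm1 rose from 62.5, 60.6 and 61.7 FPKM to 94.4, 98.8 and 126 FPKM (log2 fold change 0.77, adjusted p = 0.00757), and its neighbour Gstm2 rose by 1.08 on the log2 scale (adjusted p = 0.00633). The Gstm genes are paralogs, and how reads were shared between them was not examined and is uncertain. Gpx4, which reduces lipid peroxides, was at 43.1, 44.5 and 44.6 FPKM in WT, against 62.0, 62.3 and 97.3 FPKM in PGRN KO (a log2 fold change of 0.70, adjusted p = 0.0315, or 0.49 without PGRN KO replicate 6). Its call was lost when any of the 3 WT libraries was left out. Gsto1, Mgst1 and Gstm5 were the other genes that rose, and of these only Mgst1 passed in 17 of 17 alternatives. The gene that fell was Chac1, whose product degrades glutathione (log2 fold change -0.47, adjusted p = 0.0278), and its call was kept in 10 of 17 alternatives, and lost when any of WT replicates 1 to 3 or PGRN KO replicate 4 was left out. The other 13 tested genes of the list did not pass. The B cell, mast cell and mesothelial or fibroblast marker sums were higher in PGRN KO too, as was the resident macrophage sum, and their part in these differences was not tested.

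Neither thioredoxin gene of the set passed the test. Txnrd1 (ENSMUSG00000020250, chr10:82833951-82897712, plus strand), which encodes the cytosolic thioredoxin reductase, was at 104.5, 104.5 and 105.9 FPKM in WT and at 89.1, 90.6 and 81.5 FPKM in PGRN KO. No PGRN KO library reached the WT range, and the mean was 82.9% of WT (105 ± 0.814 against 87.1 ± 4.89 FPKM), but the difference did not pass the threshold (log2 fold change -0.27 ± 0.09 SE, 95% interval -0.47 to -0.07, adjusted p = 0.0603). It passed in 3 of 17 alternatives, each of which left out or gave less weight to PGRN KO replicate 6 (adjusted p = 0.0103 without that library). Relative to Txn1, the thioredoxin that it reduces, the ratio was 0.403, 0.385 and 0.390 in WT and 0.312, 0.318 and 0.183 in PGRN KO (log2 difference -0.58, or -0.32 without replicate 6, exact two-sided permutation p = 0.1). Txn1 itself was at 268 ± 7.06 FPKM in WT, against 338 ± 91.8 FPKM in PGRN KO (adjusted p = 0.253). Every PGRN KO library lay above every WT library for Txn1 and below for Txnrd1, so the permutation p of their ratio follows from the single genes.

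Srxn1 (ENSMUSG00000032802, chr2:152105516-152111376, plus strand) encodes sulfiredoxin, which restores overoxidised peroxiredoxins. It was at 26.6, 24.4 and 29.1 FPKM in WT and at 22.6, 27.6 and 25.1 FPKM in PGRN KO, with overlapping groups (log2 fold change -0.08, 95% interval -0.34 to 0.18, adjusted p = 0.601, and 0.01 with the sum of fragments as library size). The interval excludes a fall as large as that of Nfe2l2.

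In the list of 22 other thioredoxin and peroxiredoxin genes, 17 were tested, with 3 higher and 1 lower (median log2 fold change 0.31), beside 24.2% of all tested genes called. That median was the value of Txn1, at 259 to 272 FPKM in WT, against 286, 285 and 444.5 FPKM in PGRN KO. It therefore leaned on PGRN KO replicate 6. The peroxiredoxin genes Prdx4 and Prdx6, which remove peroxides, rose by 0.53 and 0.51 on the log2 scale (adjusted p = 0.0446 and 0.0324), and Msra, which repairs oxidised methionine, rose by 0.34 (adjusted p = 0.0397). All 3 of these calls were lost when any WT library was left out. Without PGRN KO replicate 6, Prdx4, Prdx6 and Msra rose by 0.38, 0.37 and 0.29. Sesn2, a stress-induced sestrin, fell from 58.8, 61.4 and 61.5 FPKM to 45.5, 45.1 and 43.3 FPKM (log2 fold change -0.43, adjusted p = 0.0109), again a call lost when any WT library was left out.

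Hmox1 (ENSMUSG00000005413, chr8:75093621-75100589, plus strand), which encodes the inducible haem oxygenase that cleaves haem to biliverdin, iron and carbon monoxide, fell in PGRN KO by an amount close to that of Nfe2l2. It was at 642, 656 and 639 FPKM in WT and at 327, 370 and 421 FPKM in PGRN KO. The WT libraries lay close together, and the PGRN KO libraries were spread out but all far below them. The mean was 645 ± 8.86 FPKM in WT, against 373 ± 47.1 FPKM in PGRN KO, or 57.7% of WT (log2 fold change -0.80 ± 0.12 SE, 95% interval -1.08 to -0.52, adjusted p = 0.00565), and the call held in 17 of 17 alternatives (adjusted p = 7.15e-05 to 0.0394). In WT this gene lay at the 99.2 percentile of the levels of tested genes. Of 16 other genes of haem and iron handling, 10 were tested, with 1 higher and 1 lower (median log2 fold change 0.32), beside 24.2% of all tested genes called. Slc48a1, which carries haem out of the phagolysosome, was at 16.4 FPKM in WT, against 27.7 FPKM in PGRN KO on average (log2 fold change 0.72, adjusted p = 0.00843), and Flvcr1, a haem exporter of the plasma membrane, at 3.83 and 2.20 FPKM (log2 fold change -0.60, adjusted p = 0.0140, lost when any WT library was left out).

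Nqo1 (ENSMUSG00000003849, chr8:107388225-107403206, minus strand), which encodes a quinone reductase and is often used as a marker of NRF2 activity, was the target that differed upwards. It was at 1.39, 1.04 and 1.64 FPKM in WT and at 2.38, 2.01 and 2.27 FPKM in PGRN KO, from 36, 24 and 46 fragments and 64, 59 and 61 fragments. The groups did not overlap, and the level was 1.64-fold higher in PGRN KO (1.36 ± 0.299 against 2.22 ± 0.192 FPKM, log2 fold change 0.46 ± 0.12 SE, 95% interval 0.17 to 0.74, adjusted p = 0.0363). The call passed in 7 of 16 alternatives. It was lost when any of WT replicates 1 to 3 or PGRN KO replicates 4 and 5 was left out (adjusted p = 0.0534 to 0.118), on a TPM scale (0.0629) and after correction for gene length (0.0869), but not without PGRN KO replicate 6 (0.0389).

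Among 22 other genes of quinone and aldehyde detoxification, 17 were tested, with 4 higher and 1 lower (median log2 fold change 0.29), beside 24.2% of all tested genes called. Osgin1, an oxidative stress-induced growth inhibitor and an NRF2 target, was the one that fell, from a mean of 1.96 FPKM to 0.862 FPKM (log2 fold change -0.67, adjusted p = 0.00871), and its call held in 16 of 16 alternatives. Akr1b3, an aldose reductase, and Ptgr1, a prostaglandin reductase, rose by 0.61 and 0.60 (adjusted p = 0.0218 and 0.0358), or by 0.47 and 0.42 without PGRN KO replicate 6. Aldh7a1, an aldehyde dehydrogenase, rose by 0.56 (adjusted p = 0.0394). That call was kept in 8 of 16 alternatives and lost when any of the 6 libraries was left out. The calls of Akr1b3 and Ptgr1 were lost when any WT library was left out.

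Levels per length ordered the 10 genes in WT as Hmox1, Txnrd1, Slc7a11, Nfe2l2, Srxn1, Gsr, Gclc, Gclm, Keap1 and Nqo1, and no pair of neighbours in that order had overlapping ranges of FPKM. In PGRN KO the extremes were in the same places. Srxn1 and Nfe2l2 overlapped there, as did Gclm with Gclc and Gclc with Keap1, so these neighbours did not differ beyond their spread.

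NADPH, on which glutathione and thioredoxin reductases run, was examined through 18 genes of its supply. Of these 14 were tested, with 4 lower and 1 higher (median log2 fold change 0.04), beside 24.2% of all tested genes called. Hk2, the inducible hexokinase that feeds the pentose phosphate pathway, was at 170 FPKM in WT, against 114 FPKM in PGRN KO (log2 fold change -0.58, adjusted p = 0.0115, lost without WT replicate 1 or 2), and Hk1 fell by 0.39 on the log2 scale (adjusted p = 0.0184, lost when any of 5 libraries was left out). Nadk2, the mitochondrial NAD kinase, was at 4.18 and 2.68 FPKM (log2 fold change -0.50, adjusted p = 0.00936, lost without WT replicate 1). Aldh1l2, a mitochondrial folate enzyme that makes NADPH, was higher (log2 fold change 0.80, adjusted p = 0.0380, or 1.07 without PGRN KO replicate 6). Its call was lost when any of 5 libraries was left out. Nnt, a mitochondrial source of NADPH that carries an internal deletion in C57BL/6J, had 0 to 7 fragments in any library of either genotype and was not tested. Of 6 genes of superoxide and peroxide removal, 5 were tested and 0 passed by limma, with 1 of them at an unadjusted p under 0.05 and 1 called by limma voom on the recovered fragments. Mitochondrial Sod2 was at 101 ± 7.12 FPKM in WT, against 75.5 ± 12.7 FPKM in PGRN KO (log2 fold change -0.43, adjusted p = 0.0563, or -0.56 and 0.00243 without PGRN KO replicate 6), and the catalase gene Cat at 12.3 and 12.7 FPKM (adjusted p = 0.818).

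The stress factor ATF4 shares Slc7a11, Chac1 and Sesn2 with this network as known targets. In a list of 24 genes of the ATF4 response, 21 were tested, with 6 lower and 2 higher (median log2 fold change -0.18), beside 24.2% of all tested genes called. Slc7a5, an amino acid transporter, was at 58.3 FPKM in WT, against 36.5 FPKM in PGRN KO (log2 fold change -0.66, adjusted p = 0.00372) in a call that held in 17 of 17 alternatives. Atf3, a stress-induced transcription factor, was at 1156 and 734 FPKM (log2 fold change -0.66, adjusted p = 0.00818, lost without WT replicate 1), and Ppp1r15a, which restarts translation after stress, fell by 0.59 (adjusted p = 0.0214, lost when any of 5 libraries was left out). Wars, a tryptophan tRNA synthetase that interferon also induces, was higher, at 47.5 FPKM in WT, against 73.6 FPKM in PGRN KO (log2 fold change 0.62, adjusted p = 0.00850, lost without WT replicate 1). Atf4 itself was at 265 and 213 FPKM (log2 fold change -0.32, adjusted p = 0.0980). Over all 8 lists, 158 genes in all, 117 were tested and 31.6% were called, beside 24.2% of all tested genes. Of these list genes 19 were higher and 18 lower (24 and 15 with the sum of fragments as library size), with a median log2 fold change of 0.12.

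**Figure D4:**
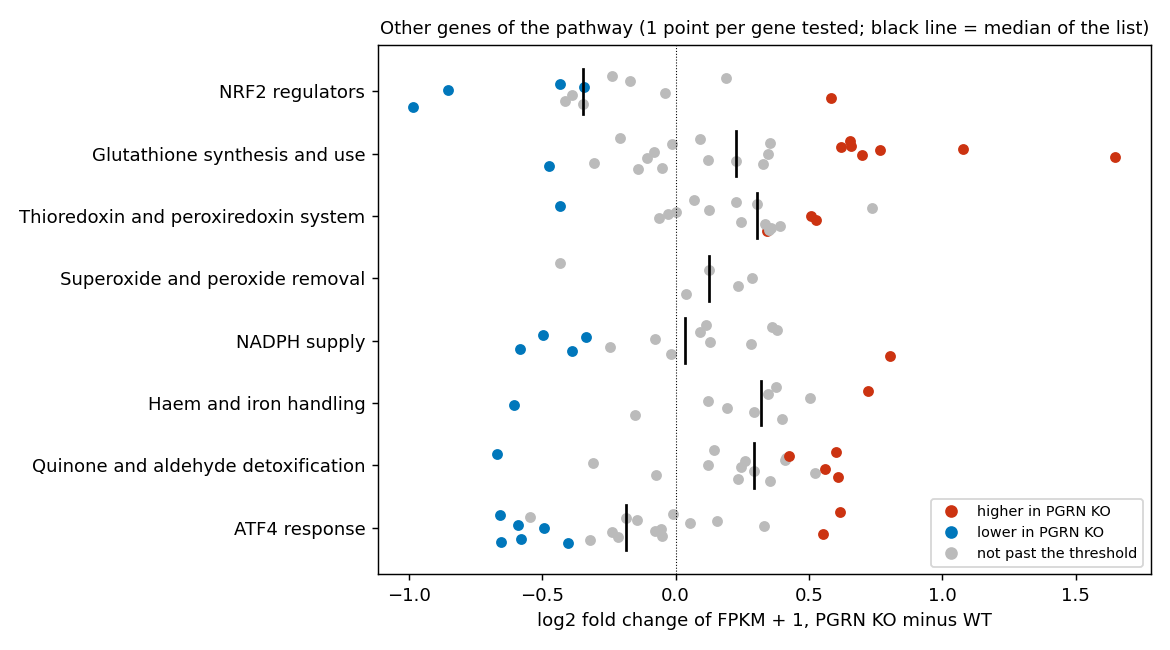
Log2 fold change in PGRN KO relative to WT (horizontal axis) of every tested gene in 8 lists of pathway genes other than the 10 (rows), with red points for higher, blue for lower and grey for genes not past the threshold, and a black line for the median of each list. Called genes of the regulator and ATF4 lists lay mostly below 0, 4 of 5 and 6 of 8, and those of the glutathione list mostly above 0, 7 of 8. The fold changes and medians include PGRN KO replicate 6, whose deviation moved with gene length.

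The gene with the smallest adjusted p of the 10 was Nfe2l2, and the genes whose log2(FPKM + 1) values were most like its own over the 6 libraries were Zswim4, Igsf6, Etf1, Sde2 and Flrt3 (Pearson's r of 0.998, 0.998, 0.998, 0.998 and 0.997). Each was lower in every PGRN KO library than in any WT library, from a mean of 38.5 to 25.3 FPKM for Zswim4 and from 28.8 to 8.10 FPKM for Flrt3. With 2 genotypes and 6 libraries such values describe a shared step between the groups, and the libraries share their depth and scaling.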

How the data were processed

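Per the file headers and the labels, the authors deposited FPKM for each library, from reads aligned to GRCm38 and counted per gene. The submitters' processing notes name HISAT2 2.0.5, featureCounts 1.5.0-p3 and DESeq2 1.20.0, while the methods of the study name HISAT 2.0.4 and HTSeq 0.6.1. The deposited FPKM times gene length gave whole fragments, within 0.001 of a step, and were already scaled between libraries by median ratios. All 6 libraries (3 WT, 3 PGRN KO) entered limma 3.58.1 in R 4.3.3 on log2(FPKM + 1), with genes of mean FPKM of at least 1, a mean-variance trend, no covariates and two-sided tests. Ratios were tested by exact permutation. No pair of libraries of a group agreed within sampling noise.

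The genes, lists and tests were chosen with earlier results of these data known. From each list the 4 largest changes past the threshold were named, or the 2 most abundant genes where fewer than 2 passed, and Gsto1, Mgst1, Gstm5, Mafg, Chac1 and Atf4 were named after their values were seen. Gene positions are those of the table, which 98.26% of the genes found in GENCODE vM21 shared. Alternatives were a pseudocount of 0.1, no filter, a mean FPKM of at least 5, TPM and quantile scaling, the sum of fragments as library size, no trend, sample quality weights, loess length correction (span 0.5), voom and leaving out each library. Length correction without PGRN KO replicate 6 was chosen after seeing the data.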

Additional observations from a re-analysis of the deposited data

How the results depend on the processing

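No paired analysis was possible because WT and PGRN KO libraries carry different replicate numbers. Of the 10 genes, 6 passed the threshold (2 higher, 4 lower), against 2 (0 higher, 2 lower) with no filter, 3 (1 higher, 2 lower) on a TPM scale, and 2 to 7 (0 to 2 higher, 2 to 5 lower) with a library left out. The share of all tested genes called was 24.2% in the main fit and 17.2% on the TPM scale. With no filter, 1366 of 22912 tested genes were called, so the counts of members do not share a background. Of the higher genes, 1 remained after length correction and 1 with voom. With a mean FPKM of at least 5, 0 were called higher, since Keap1, Nqo1 and Gclm were then not tested. By limma, Keap1 and Nqo1 were at adjusted p of 0.0541 and 0.102 with no filter. Gsr, near 0 throughout, changed sign after length correction (log2 fold change -0.026) and when WT replicate 1 or PGRN KO replicate 4 was left out (-0.014 to 0.035 over all libraries left out in turn), as did Srxn1 with the sum of fragments as library size (0.011). Genes of the 8 lists that were higher (19) numbered 8 with no filter, 11 at a mean of at least 5, 32 with quality weights and 5 to 24 with a library left out. Those that were lower (18) numbered 34 with quality weights, 34 after length correction without PGRN KO replicate 6, and 3 to 35 with a library left out, 35 being without PGRN KO replicate 6. All called genes (2151 of 8882) numbered 1366 of 22912 with no filter. Of the same 8882 genes they numbered 4225 with quality weights, 3664 after length correction without that replicate, and 713 to 3668 with a library left out. Of the gene-level comparisons of the 10 genes, 135 kept both sign and side of the threshold, including those of genes that had not passed in the main fit. In 25 a call was lost, in 3 one was gained and in 4 the sign changed. The causes were not tested. Nqo1 had the fewest fragments of the 10 genes, 24 to 64 a library.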
